A study of Mus musculus with 30 samples.

Results

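In all, 10 matrix and surface genes of fibroblasts were followed through 30 bulk RNA-seq libraries of female mouse embryonic stem cells (mESCs) that had been grown on feeder fibroblasts. The genes were Col1a1, Col1a2, Col3a1, Col5a2, Postn, Sparc, Bgn, Dcn, Lum and Thy1. They are 10 of the 55421 genes in the deposited count table, taken by name as genes that fibroblasts express, and all 10 were found through their Ensembl identifiers. All 10 passed the filter on low counts for the test of levels, and 9 passed the one for the test of allelic shares, which left out Lum.

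The study used mESCs of a 129/Sv x Cast/Ei cross to ask how genes of a single X chromosome are expressed, in lines that lack all or a segment of 1 X chromosome. Reads overlapping a base that differs between the strains were assigned to the 129 or the Cast copy, so that each gene has a count of all reads, of 129 reads and of Cast reads. The 30 libraries fall into 17 groups. XX wild type cells had 2 libraries, and so had XX Rnf12+/- cells, in which 1 copy of Rnf12, on the 129 X, was deleted.

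All 13 deletion lines carry the Rnf12+/- deletion as well as the heterozygous deletion of an X segment that names them. Deletions C, D, E, F, H, I, I-TEL, J and K had 2 clones each, while A, B, AB and C-G had 1 library each, so that each of those 4 groups is a single clone. The lines of Deletion I-TEL and J were derived from another Rnf12+/- line than the rest. The XO lines with only the Cast X (XCastO129) or only the 129 X (X129OCast) had 2 libraries each. The paper describes XO lines as having arisen during the targeting, and its bulk samples as made in Rnf12+/- cells. By that account XCastO129 cells hold an intact Rnf12 copy and X129OCast cells only the deleted one. Rnf12 and the X that was kept thus cannot be told apart between the XO lines. The study describes the replicates of its XX, XO and deletion cells as independent clones. Its methods take the mean XX level of that analysis from the Rnf12+/- cells. Whether the wild type replicates were clones too is not stated.

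All lines were grown on mouse embryonic fibroblasts (MEFs), which were irradiated for the Rnf12+/- cells, the deletion lines and their controls and treated with mitomycin for the other mESCs. MEFs were depleted by letting dissociated cells attach to uncoated plates before RNA extraction. The submitters checked the depletion by PCR on genomic DNA. The strain and sex of the MEFs are not given in the sources used here. Library names split the 30 libraries into 3 sets. Set 1 holds the wild type, Rnf12+/- and Deletion E libraries (6 libraries, 20374510 to 21180709 counts each). Set 2 holds the other 12 deletion lines (20 libraries, 8815980 to 10679746 counts), and set 3 the XO lines (4 libraries, 14997997 to 16494587 counts, single reads where the others were paired). Set and group cannot be told apart when the 12 lines or the XO lines are compared with Rnf12+/- cells. As a check of the stem cell label, Esrrb, a factor of naive pluripotency, was at 491 to 999 TPM (a level corrected for exon length and library size) in the 30 libraries and Klf4 at 251 to 849 TPM.

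Fibroblasts build most of the connective tissue matrix. Type I collagen is a trimer of the chains made by Col1a1 and Col1a2, types III and V assemble with it into fibrils, and small leucine-rich proteoglycans such as biglycan, decorin and lumican bind those fibrils. MEFs are used as feeders because they support the growth of stem cells, and RNA of cells that remain after depletion is sequenced with that of the stem cells. In such bulk RNA, fewer cells of a type and less RNA per cell cannot be told apart.

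Of the members, 9 lie on autosomes and Bgn on the X (GRCm38/mm10). Bgn spans chrX:73483602-73495933 and lies inside the segments lost in Deletion E and Deletion C-G. The promoters of 3 members are shown because their loci come up repeatedly below: Bgn is the only X-linked member, Postn the only one of those with over 100 allelic reads that gave no Cast read, and Col3a1 a gene whose level parted from that of type I collagen in set 1. Each is the 250 bases before the start of a RefSeq transcript on GRCm38.p6, on the plus strand, at chrX:73483351-73483600, chr1:45311288-45311537 and chr3:54360857-54361106. RefSeq gives Postn another start, whose window at chr3:54359017-54359266 held no TATAAA, was 40.4% G or C and is not shown. Capitals mark TATAAA, and none of the 3 windows overlaps an annotated exon.
Bgn: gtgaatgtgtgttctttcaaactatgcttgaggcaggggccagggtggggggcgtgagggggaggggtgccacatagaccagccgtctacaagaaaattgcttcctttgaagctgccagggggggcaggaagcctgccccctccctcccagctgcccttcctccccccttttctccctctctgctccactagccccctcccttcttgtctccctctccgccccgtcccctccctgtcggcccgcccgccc
Col3a1: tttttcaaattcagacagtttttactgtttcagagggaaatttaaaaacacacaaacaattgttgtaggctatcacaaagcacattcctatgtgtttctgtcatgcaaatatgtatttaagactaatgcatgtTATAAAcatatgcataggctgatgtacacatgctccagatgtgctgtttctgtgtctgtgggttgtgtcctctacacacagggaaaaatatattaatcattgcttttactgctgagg
Postn: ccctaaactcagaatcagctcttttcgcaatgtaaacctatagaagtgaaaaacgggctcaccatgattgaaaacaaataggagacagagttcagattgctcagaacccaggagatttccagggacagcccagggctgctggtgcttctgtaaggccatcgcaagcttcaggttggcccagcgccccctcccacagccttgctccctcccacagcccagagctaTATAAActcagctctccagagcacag
TATAAA stood in the Col3a1 window and the Postn window shown, and in 12.4% of all 32851 promoter windows of the same length, searched on both strands. CCAAT, searched the same way, was in none of the 3 and in 33.8% of all windows. The Bgn window was 64.4% G or C, the Postn window shown 52% and the Col3a1 window 35.2%, against a median of 52.4% over all windows. These are matches of letters and say nothing of binding. RefSeq entries were matched for 5 of the 10 members, the other two being Col1a2 and Sparc.

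The 10 genes together took 0.0275 to 0.140% of the counts of a library. Each of them was detected in all 30 libraries, and the higher replicate of a group exceeded the lower by a median of 1.46- to 1.57-fold for the 4 collagens, with 2 to 4 of 13 groups over 2-fold. In TPM, Sparc was the most abundant member (median 162 over the 30 libraries), followed by Bgn (55.0), Col1a1 (49.3), Thy1 (42.5) and Col1a2 (17.8). Col3a1 (7.91), Col5a2 (5.09), Postn (3.30), Lum (1.37) and Dcn (1.09) were lower.

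**Figure D1:**
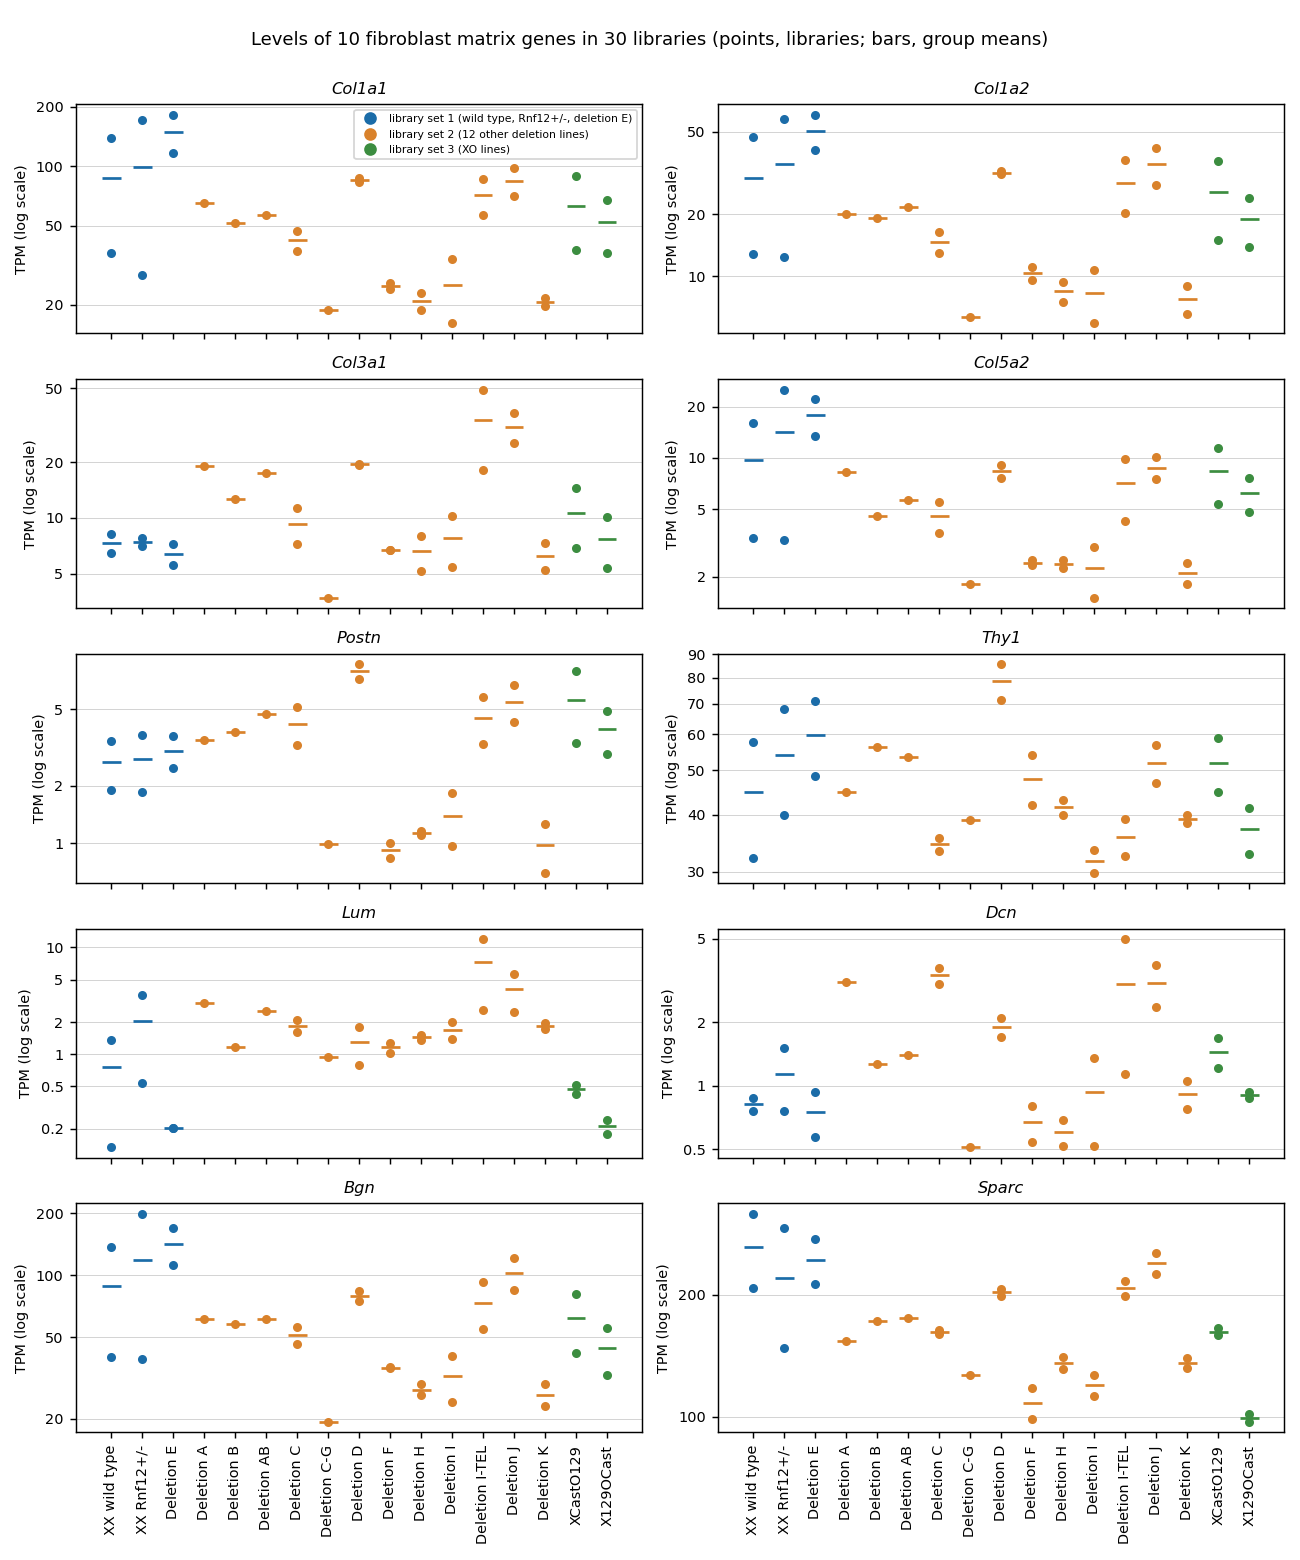
Level of each of the 10 genes in each of the 30 libraries, as TPM on a log axis, with 1 point per library and colours for the 3 library sets. Sparc and Thy1 spread over less than 4-fold (Sparc 97.1 to 317 TPM), Col5a2 over 16.7-fold and Lum over 89.6-fold.

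Col1a1, the alpha 1 chain of type I collagen, stood at 138 and 36.4 TPM in the 2 wild type libraries, at 170 and 28.3 TPM in Rnf12+/- cells, and at 116 and 182 TPM in Deletion E. The XCastO129 libraries had 37.6 and 89.0 TPM and the X129OCast libraries 36.5 and 67.9 TPM. In set 2 the lowest, median and highest of 20 libraries were 16.2, 42.2 and 97.4 TPM. Replicates lay far apart in the wild type and in Rnf12+/- cells, where replicate 1 was 6.01 times replicate 2. When the 17 groups were ordered by mean, from Deletion E (149 TPM) to Deletion C-G (18.8 TPM), 12 of the 16 neighbouring pairs overlapped in their libraries.

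Col1a2, the alpha 2 chain, ran with Col1a1 at a lower level. It was at 47.1 and 12.8 TPM in wild type, 57.3 and 12.4 TPM in Rnf12+/- cells and 40.6 and 60.2 TPM in Deletion E. It was at 15.0 and 36.1 TPM in XCastO129, 13.8 and 24.0 TPM in X129OCast, and 5.95 to 41.8 TPM (median 14.7) in set 2. The order of the libraries within set 1 was the same for both chains of type I collagen.

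The chains of type V and type III collagen differed from each other. Col5a2, of type V collagen, had the widest gap between the Rnf12+/- replicates of all members that were higher in replicate 1, at 25.2 and 3.31 TPM, a ratio of 7.60. It was at 16.1 and 3.40 TPM in wild type, 13.5 and 22.2 TPM in Deletion E, 4.82 to 11.4 TPM in the XO lines and 1.51 to 10.1 TPM in set 2.

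Col3a1, of type III collagen, did not show that gap. Its levels were 8.23 and 6.45 TPM in wild type, 7.04 and 7.79 TPM in Rnf12+/- cells, and 5.55 and 7.27 TPM in Deletion E, a range of 1.48-fold over set 1. In set 2 it ran from 3.70 to 49.2 TPM, a 13.3-fold range, with the highest values in Deletion I-TEL (18.0 and 49.2 TPM) and Deletion J (36.7 and 25.2 TPM). It was at 6.88 and 14.4 TPM in XCastO129 and 5.35 and 10.1 TPM in X129OCast.

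Of the matricellular proteins, which bind matrix and cells, periostin (Postn) was at 1.85 to 3.66 TPM in set 1, 2.94 to 7.92 TPM in the XO lines and 0.703 to 8.59 TPM in set 2. Its highest libraries were the 2 of Deletion D, at 7.21 and 8.59 TPM, and replicate 2 of XCastO129. Sparc, a collagen-binding glycoprotein, was at 317 and 208 TPM in wild type, 293 and 148 TPM in Rnf12+/- cells and 213 and 274 TPM in Deletion E. It was at 159 and 166 TPM in XCastO129, at 97.1 and 102 TPM in X129OCast and at 98.6 to 253 TPM in set 2.

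Among the proteoglycans, biglycan (Bgn) varied as type I collagen did. It was at 137 and 39.8 TPM in wild type, 199 and 39.2 TPM in Rnf12+/- cells, 112 and 171 TPM in Deletion E, 42.0 and 81.3 TPM in XCastO129, and 32.6 and 55.4 TPM in X129OCast. In set 2 it ran from 19.3 TPM in Deletion C-G to 122 TPM in replicate 1 of Deletion J, with a median of 50.5 TPM. Deletion E, which lost 1 copy of Bgn, was thus the highest group by mean (141 TPM) and Deletion C-G, which lost a copy too, the lowest.

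Decorin (Dcn) was scarce, at 0.569 to 1.51 TPM in set 1, 0.876 to 1.68 TPM in the XO lines and 0.510 to 4.97 TPM in set 2. Lumican (Lum) ran opposite to type I collagen in set 1. It was at 0.134 and 1.37 TPM in wild type, 0.534 and 3.59 TPM in Rnf12+/- cells and 0.203 and 0.201 TPM in Deletion E, so that the replicate with more Col1a1 had less Lum in the wild type and in Rnf12+/- cells. Set 2 had 0.787 to 11.98 TPM of Lum, and all of its 20 libraries lay above the highest XO library (0.509 TPM). Set, read type and group cannot be told apart in that comparison.

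Thy1, a surface glycoprotein of fibroblasts that other cells carry too, had the narrowest range over all 30 libraries (2.86-fold). Within each set Sparc ranged less, by 2.14-, 2.57- and 1.70-fold in sets 1, 2 and 3 against 2.21-, 2.86- and 1.80-fold for Thy1. The levels of Thy1 were 57.7 and 32.1 TPM in wild type, 68.1 and 39.8 TPM in Rnf12+/- cells, 48.6 and 70.9 TPM in Deletion E, 32.8 to 59.0 TPM in the XO lines and 29.8 to 85.5 TPM in set 2. The 2 highest libraries were those of Deletion D, at 85.5 and 71.4 TPM. Over the 13 groups with 2 libraries, the higher replicate exceeded the lower by a median of 1.21-fold for Thy1 and 1.09-fold for Sparc, against 1.52-fold for Col1a1 and 1.53-fold for Bgn.

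The same 2 Rnf12+/- libraries served as controls in all comparisons with Rnf12+/- cells. Those libraries differed in the fibroblast identity and contractile genes as they did in Col1a1, with 1792 TPM summed over 15 genes in replicate 1 and 339 TPM in replicate 2. Wild type and Rnf12+/- cells were compared first, to see whether the loss of 1 Rnf12 copy moved these genes. None of the 10 was called at an adjusted p under 0.05 (edgeR's quasi-likelihood test with Benjamini-Hochberg adjustment over 18316 genes), where 2.75% of all genes tested were called, and none was below 0.05 unadjusted. DESeq2 called 0 of the 10 as well. Without the filter on low counts 2 were called, against 2.71% of all genes, in a fit that used a spread common to genes of like level in place of each gene's own. The largest difference on the log2 scale was that of Lum, at -1.46 ± 0.79 (SE, adjusted p = 0.481). The median log2 difference was -0.27 over the 10 and -0.01 over all genes.

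Deletion E, in which 1 Bgn copy is missing, was compared with its Rnf12+/- controls of the same set. Again edgeR called 0 of the 10, against 0.584% of all genes, with 1 of the 10 below 0.05 unadjusted, and DESeq2 called 0. Without the filter 3 were called, against 1.89% of all genes. Bgn differed by 0.19 ± 0.54 on the log2 scale (SE, adjusted p = 0.944). Lum had the lowest unadjusted p, at a log2 difference of -3.33 ± 0.98 (adjusted p = 0.168).

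The XO lines were compared with Rnf12+/- cells and with each other, since they lack a whole X. In XCastO129 cells 1 of 10 members was called, against 34.7% of all genes: Postn was higher by 1.13 ± 0.42 on the log2 scale (adjusted p = 0.043). The call was lost with the replicate block (adjusted p = 0.053), without replicate 2 of XCastO129 (0.36, adjusted p = 0.592) and without replicate 2 of Rnf12+/- cells (0.72, adjusted p = 0.274). In X129OCast cells 2 of 10 were called, against 45.1% of all genes. Sparc was lower by a log2 difference of -1.002 ± 0.21 (adjusted p = 0.00080) and Lum of -3.08 ± 1.03 (adjusted p = 0.020). Sparc was at -0.44 without replicate 1 of Rnf12+/- cells, and Lum at -1.14 without their replicate 2. Of the 4 refits that left out a library, 1 ended the Sparc call and 3 ended the Lum call. Both shares of members called lay below the background. Without the filter 8 of 10 were called in each of the XO lines, against 18.6% of all genes in XCastO129 and 23.8% in X129OCast.

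Between the XO lines, which were of the same set, edgeR called 0 of 10 members against 5.83% of all genes, with 1 below 0.05 unadjusted. That gene was Sparc, at a log2 difference of 0.66 ± 0.21 (XCastO129 over X129OCast, adjusted p = 0.074), which DESeq2 called. Without the filter 3 were called, against 4.49% of all genes. All 10 had a positive difference, with a median of 0.44 where that over all genes was 0.01. Other lists were positive here too, with a median of 0.49 for the 8 naive stem cell genes (3 called higher), 0.45 for the 15 fibroblast identity and contractile genes (0 called), 0.37 for the 15 endoderm markers (2 called higher) and 0.84 for the 4 Y-linked genes (0 called).

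Of 120 pairs of a member and 1 of the 12 deletion lines, 27 were called against Rnf12+/- cells, 5 higher and 22 lower. Of all such pairs of a gene and a line 15.5% were called, 7.12% higher and 8.33% lower. Bgn and Sparc were lower in 5 lines each, Col5a2 in 4, Col1a1 and Col1a2 in 3 each, and Thy1 and Postn in 1 each. Col3a1 was higher in 3 lines, and Postn and Dcn in 1 each. The Rnf12+/- replicates decided this count, which was 5 without their replicate 1 and 59 without their replicate 2. It was 79 without the filter on low counts, against 9.76% of all pairs. Of the 27 calls, 23 held with DESeq2, with other normalizations, without the filter and with the replicate block.

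Each of the 12 lines was also compared with the mean of the other 11, within set 2. Of 120 pairs 13 were called, 12 higher and 1 lower, where 8.44% of all pairs were, 4.70% higher and 3.73% lower. Without the filter 77 were called, against 5.89% of all pairs. Deletion J accounted for 6 of them, all higher, in a line where 18.6% of all genes were called. There Col3a1 was higher by 1.52 on the log2 scale (adjusted p = 0.00055), Col1a2 by 1.29 (adjusted p = 0.026), Bgn by 1.22 (adjusted p = 0.027), Dcn by 1.20 (adjusted p = 0.022), Postn by 1.19 (adjusted p = 0.011) and Sparc by 0.64 (adjusted p = 0.0057), all by edgeR. DESeq2 did not call Col1a2 (adjusted p = 0.053) or Bgn (adjusted p = 0.057). The median of the 10 members was 1.17 in Deletion J and that of all genes 0.03. The 15 genes of fibroblast identity and contraction had a median of 0.99 there, with 6 called higher, and the 8 naive stem cell genes one of -0.07, and the part of remaining feeder cells in these calls was not tested.

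Deletion I-TEL, with 14.9% of all genes called, had 3 calls, Lum (2.00, adjusted p = 0.0078), Col3a1 (1.60, adjusted p = 0.00033) and Dcn (1.16, adjusted p = 0.030). These rested on its replicate 2, without which Lum was at 0.54, Col3a1 at 0.74 and Dcn at -0.22. Deletion D (11.2% of all genes) had 2 calls, Postn (1.79, adjusted p = 0.00099) and Thy1 (0.90, adjusted p = 0.0036), and Deletion C (30.9% of all genes) had 1, Dcn (1.38, adjusted p = 0.0043). The call in the other direction was Postn in Deletion F (-1.56, adjusted p = 0.048, 3.91% of all genes). The replicate block ended the calls of Postn in Deletion F (adjusted p = 0.053) and of Dcn in Deletion I-TEL (adjusted p = 0.052). Deletion I-TEL and J come from the other Rnf12+/- line, whose part in the calls was not tested. Dcn and Postn held 3 of the 13 calls each and Col3a1 held 2, while Col1a1 and Col5a2 held 0. Without replicate 1 of Deletion J, the 13 calls became 6. None of the 43 level calls in these comparisons held in every refit that left out a library.

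Other genes of fibroblasts were described in the same fits. Of 300 pairs of another matrix gene and a line, 16 were higher and 8 lower than in the other 11 lines, of 180 pairs for genes of fibroblast identity and contraction 7 were higher and 1 lower, and of 192 pairs for other fibrillar collagens and the enzymes that make them 8 were higher and 4 lower, where 4.70% of all pairs were higher and 3.73% lower. Against Rnf12+/- cells, the identity and contractile genes had 1 higher and 46 lower of 180 pairs, where 7.12% of all pairs were higher and 8.33% lower. The other matrix genes had 22 higher and 26 lower of 300 pairs there, and the collagens and their makers 24 higher and 13 lower of 192. X-linked genes expressed in fibroblasts had 13 higher and 11 lower of 120 pairs there, and 6 higher and 5 lower against the other 11 lines. The naive stem cell genes had 3 higher and 34 lower of 96 pairs against Rnf12+/- cells and 10 higher and 10 lower against the other 11 lines.

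**Figure D2:**
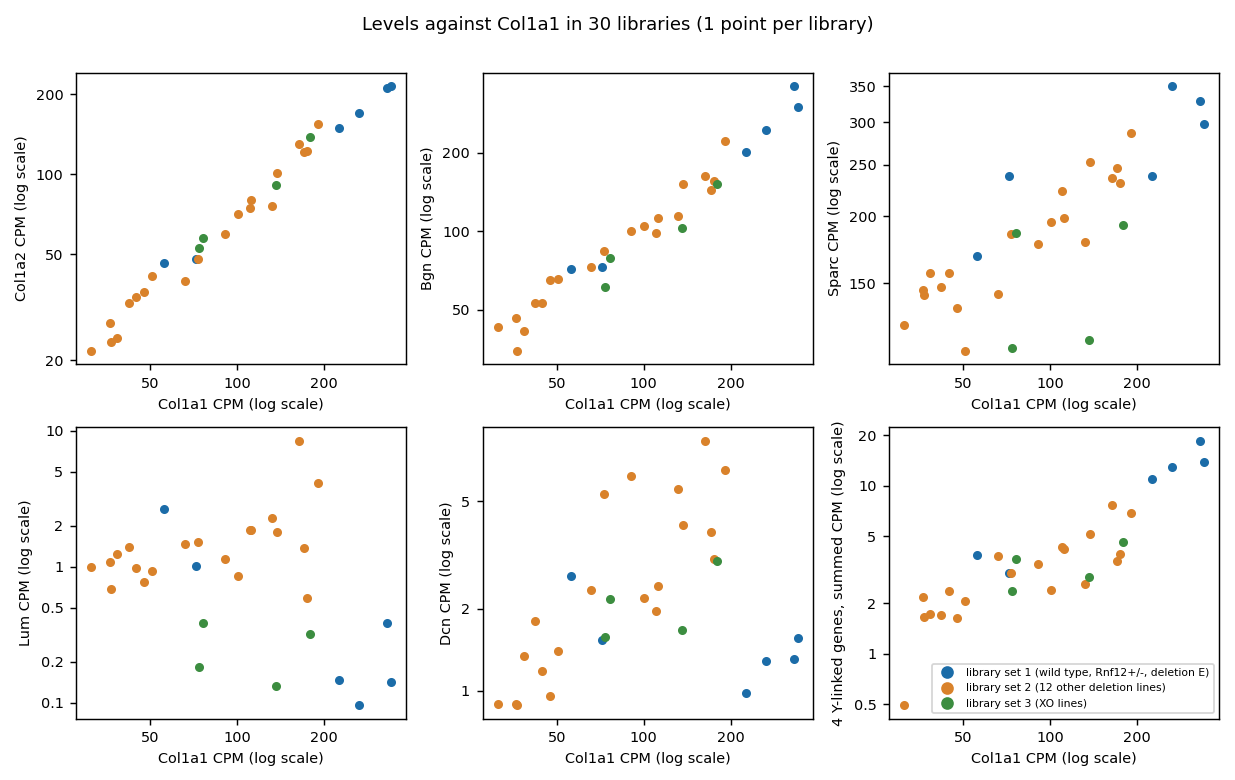
Levels of 5 other members and of 4 Y-linked genes, summed, against Col1a1 in each library, in CPM (counts scaled to library size) on log axes, with colours for the library sets. Bgn follows Col1a1 in every set, while Lum falls as Col1a1 rises within set 1 (r = -0.90).

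Within set 2 every other member rose with Col1a1 on the log2 CPM scale. Pearson's r over the 20 libraries was 0.987 for Col1a2, 0.979 for Col5a2, 0.977 for Bgn, 0.947 for Postn and 0.940 for Col3a1, each with an adjusted permutation p of 1.5e-05. It was 0.895 for Sparc (Spearman's rho 0.868), 0.830 for Dcn (rho 0.841), 0.534 for Lum (rho 0.478) and 0.530 for Thy1 (rho 0.501). All 9 had an adjusted p under 0.05 by r and by rho, the highest being 0.035 for the rho of Lum, and 1e-05 is the smallest unadjusted p that 100000 permutations can give. Without the 2 libraries farthest from the median of Col1a1, r was 0.447 for Lum, 0.457 for Thy1 and 0.787 or more for the others. Both clones of a line were counted as separate libraries. Correlation with Col1a1 was computed for the members only, here and in the other sets, so no share over all genes stands beside these counts.

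Set 1 gave another picture for 3 members. Over its 6 libraries r with Col1a1 was 0.996 for Col1a2, 0.992 for Col5a2, 0.988 for Bgn and 0.946 for Postn, and it was -0.127 for Col3a1, -0.690 for Dcn and -0.899 for Lum. By an exact permutation test, whose smallest p is 0.0014, 7 of 9 had an adjusted p under 0.05 by r and 5 by rho, and those not under it by r were Col3a1 and Dcn. The negative values rested on the second replicates of the wild type and of Rnf12+/- cells, without which r was 0.484 for Lum, 0.895 for Dcn and 0.498 for Col3a1. The XO set, with 4 libraries, was too small for a correlation. Pooled over 30 libraries 7 of 9 had an adjusted p under 0.05, and 8 of 9 once the mean of each set was subtracted.

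The genes whose pattern was most like the mean of the 10 members were found among 14928 genes by Pearson's r after the mean of each library set was subtracted, as a description over 30 libraries. They were Thbs2 (thrombospondin 2, r = 0.967), Col6a2 (a type VI collagen chain, 0.958), Aebp1 (0.949), Col16a1 (0.944) and Grem1 (a BMP antagonist, 0.943). The median r over all genes was 0.03 and the 95th percentile 0.565. The members themselves, each of which is also part of that mean, ranged from 0.343 for Lum and 0.558 for Thy1 to 0.948 for Col1a2. The median r was 0.759 for 22 other matrix genes and 0.762 for 15 identity and contractile genes of fibroblasts. It was lower for 16 fibrillar collagens and their makers (0.593) and for 7 X-linked genes expressed in fibroblasts (0.380). It was 0.294 for 14 endoderm markers, -0.154 for 6 endothelial and blood markers and -0.246 for 8 naive stem cell genes.

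Genes of the Y chromosome, which these female lines lack, were read in all 30 libraries and varied with the members. The summed counts of Ddx3y, Eif2s3y, Kdm5d and Uty were 269 and 63 in wild type, 383 and 79 in Rnf12+/- cells and 225 and 295 in Deletion E. The 4 libraries of set 1 with much Col1a1 were thus the 4 with many Y-linked reads. They were 39 to 72 in the XO lines and 5 to 79 in set 2. The 2 Y-linked genes with over 1 CPM on average had r of 0.814 (Eif2s3y) and 0.696 (Ddx3y) with the mean of the members. Of 48 pairs of a Y-linked gene and a line, 9 were lower than in Rnf12+/- cells and 0 higher, where 8.33% of all pairs were lower. The part of male feeder RNA in the members' levels was not tested.

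The share of allelic reads that came from the 129 copy was above the autosomal median for every member. Over all 30 libraries it was 98.8% for Col1a1 (4463 of 4519 allelic reads, 95% Wilson interval 98.4 to 99.0%), 77.8% for Col1a2 (3120 of 4009), 78.3% for Col3a1 (376 of 480) and 82.6% for Col5a2 (1042 of 1262). Postn gave 675 of 675 reads, an interval of 99.4 to 100%, and Lum 12 of 12. It was 99.7% for Bgn (7337 of 7360), 94.5% for Dcn (156 of 165), 68.4% for Thy1 (3363 of 4920) and 63.5% for Sparc (3611 of 5688). These intervals cover counting error only.

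For comparison, the median over 12606 autosomal genes with at least 100 allelic reads was 52.2%, the quartiles were 46.9 and 58.7% and the 95th percentile was 80.3%. Of those genes 0.928% were at or above Col1a1, 5.85% at or above Col1a2, 16.0% at or above Sparc and 10.8% at or above Thy1. Of the 9 members with 100 allelic reads, 5 were above the 95th percentile. The 5 genes most like the members' mean were split in this share. Col6a2 (95.6%), Aebp1 (92.9%) and Thbs2 (92.3%) were above that percentile, while Col16a1 (56.1%) and Grem1 (50.0%) lay within the autosomal quartiles. Reads summed over all members were 83.0% 129. They were 89.0% for the fibroblast identity and contractile genes (Vim 86.7%, Acta2 99.3%, Cd44 97.9%) and 62.9% for the other matrix genes (Fn1 64.1%). They were 52.7% for the fibrillar collagens and their makers, and 52.6% for X-linked genes expressed in fibroblasts, a sum that includes lines lacking an X copy. They were 55.3% for endoderm markers and 56.7% for naive stem cell genes (Esrrb 58.6%). Such sums weigh abundant genes most, among them Vim and Fn1. Single genes with at least 100 allelic reads ranged from 63.9 to 99.4% for identity and contraction. For the other matrix genes that range was 12.3 to 99.9%.

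**Figure D3:**
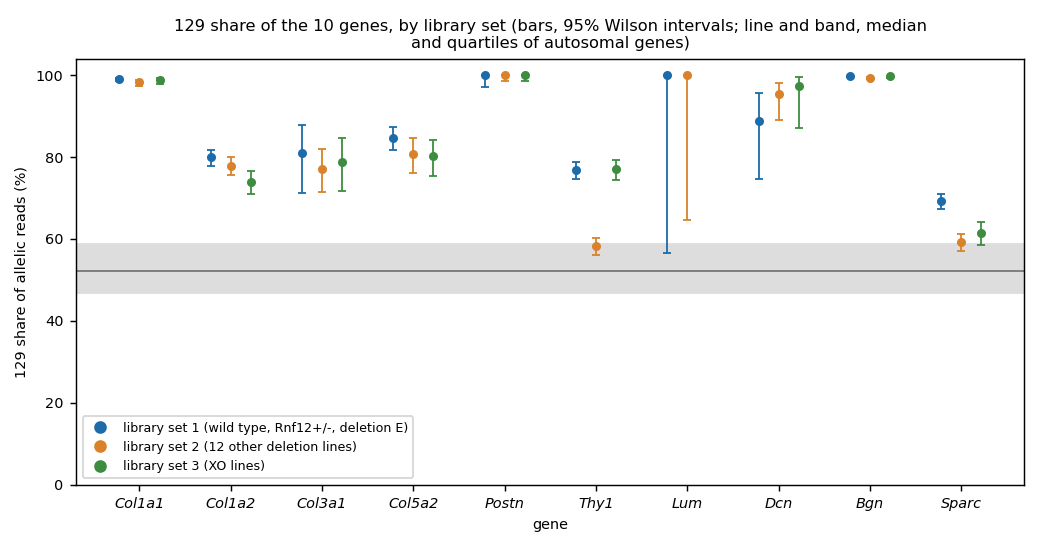
Share of allelic reads from the 129 copy for each member, summed over the libraries of each set, in percent with 95% Wilson intervals and with the grey band and line giving the quartiles (46.9 and 58.7%) and median (52.2%) of autosomal genes. Col1a1, Postn and Bgn lie near 100% in every set, and Sparc lies lowest in sets 1 and 3 and Thy1 in set 2.

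The 129 share of Sparc and Thy1 was lower in the replicate with less Col1a1, in the wild type and in Rnf12+/- cells. In Rnf12+/- cells 371 of 463 Sparc reads were 129 in replicate 1 and 129 of 241 in replicate 2, the replicate with less Col1a1. In wild type the counts were 334 of 488 and 153 of 279. For Thy1 they were 270 of 325 and 114 of 185 in Rnf12+/- cells and 215 of 255 and 106 of 161 in wild type. The share of Thy1 was 76.9% over set 1, 77.0% over the XO set and 58.2% over set 2.

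The 2 alleles' own levels show which reads varied. Over the 6 libraries of set 1 the 129 reads of Sparc ranged 2.85-fold in CPM and its Cast reads 1.74-fold. In set 2 these ranges were 4.05-fold and 2.07-fold. For Thy1 the 129 reads ranged 2.70-fold and the Cast reads 1.90-fold in set 1, and 3.47-fold and 2.81-fold in set 2. Col1a2 differed from both, since its Cast reads varied as widely as its 129 reads, by 5.90-fold and 5.83-fold in set 1 and by 15.1-fold and 11.5-fold in set 2, the lowest Cast values resting on few reads.

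**Figure D4:**
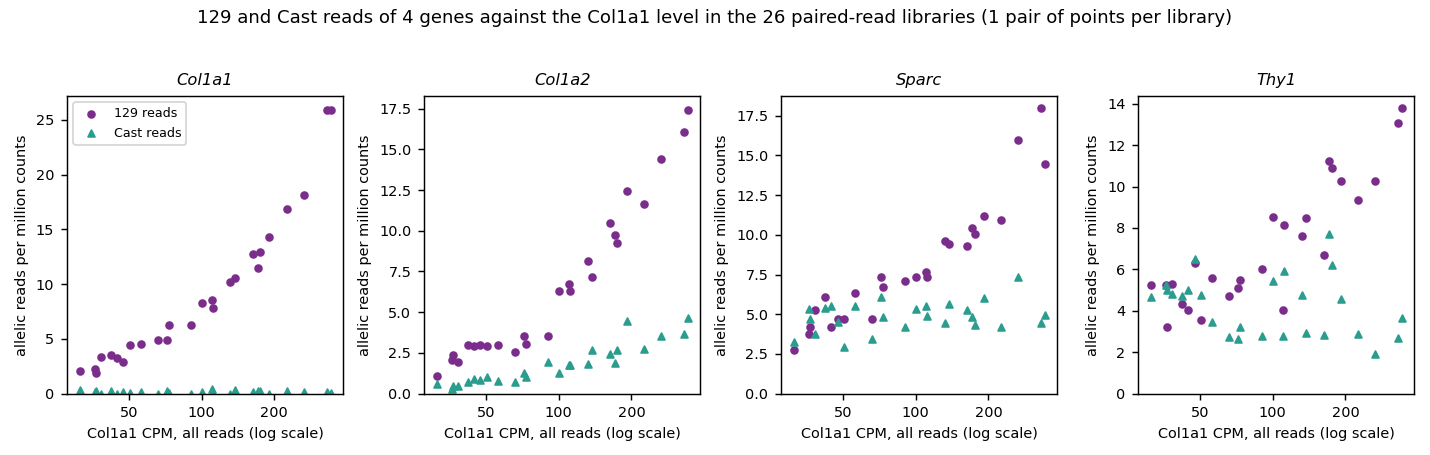
Reads from the 129 and the Cast copy of Col1a1, Col1a2, Sparc and Thy1, in CPM, against the level of Col1a1 (CPM, log axis) in the 26 paired-read libraries. The 129 reads of Sparc range more widely than its Cast reads (2.85-fold against 1.74-fold in set 1), and both alleles of Col1a2 range widely.

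Differences in the 129 share between groups were tested in a fit with 129 and Cast counts side by side, on 12976 genes. Postn stays in the counts below but could not be called, since it gave no Cast read and its ratio had no finite estimate. Bgn gave no Cast read in Rnf12+/- cells (1186 of 1186 reads were 129) or X129OCast cells (564 of 564). Its ratio had no finite estimate in those groups, and it could not be called between them, but it stays in the counts too. No member of 9 was called in wild type against Rnf12+/- cells (2.13% of all genes were, 1 member was below 0.05 unadjusted), in Deletion E (0.293% of all genes, 0 members below 0.05 unadjusted) or in X129OCast (7.51% of all genes, 0 members). The member below 0.05 unadjusted in wild type was Bgn, with 847 of 851 reads from the 129 copy there. In XCastO129 cells 1 of 9 was called, against 6.64% of all genes. Col1a2 had a 129 to Cast ratio lower by a log2 difference of -0.97 than in Rnf12+/- cells (edgeR, adjusted p = 0.0073), from 111 of 173 and 269 of 378 reads against 331 of 406 and 61 of 77.

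Against X129OCast cells, in which 127 of 162 and 178 of 215 Col1a2 reads were 129, the difference was -0.95 (edgeR, adjusted p = 0.017), the 1 member of 9 called, against 3.77% of all genes. The 2 XO lines did not overlap in this share, but how many of all genes do not overlap between 2 and 2 libraries was not counted. Both calls were lost without replicate 1 of XCastO129, at adjusted p = 0.086 and 0.135, and the first without replicate 1 of Rnf12+/- cells (adjusted p = 0.471), the second without replicate 2 of X129OCast (adjusted p = 0.425). Among the 12 lines, Col3a1 gave no allelic read in Deletion C-G, which enters each contrast, so none of its pairs could be called. Dcn and Bgn gave no Cast read in several lines, where their ratios had no finite estimate. These pairs and those of Postn are counted below. In the 12 lines, 1 of 108 pairs was called, against 1.49% of all pairs, namely Thy1 in Deletion J (0.98, edgeR, adjusted p = 0.027), from 99 of 143 and 89 of 120 reads. That call was lost with a minimum of 30 allelic counts (adjusted p = 0.063) and with replicate 1 or replicate 2 left out of the 8 lines that have 2 (adjusted p = 0.545 and 0.781).

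Bgn was then followed where the stem cells hold no 129 copy of it. In the XCastO129 libraries, which have no 129 X, 293 of 297 and 537 of 537 allelic Bgn reads were 129. In Deletion E 561 of 562 and 802 of 802 were, and in Deletion C-G 45 of 45. Where both copies are present the picture was the same, with 993 of 993 and 193 of 193 reads in Rnf12+/- cells. The X129OCast libraries, which have no Cast X, gave 227 of 227 and 337 of 337.

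**Figure D5:**
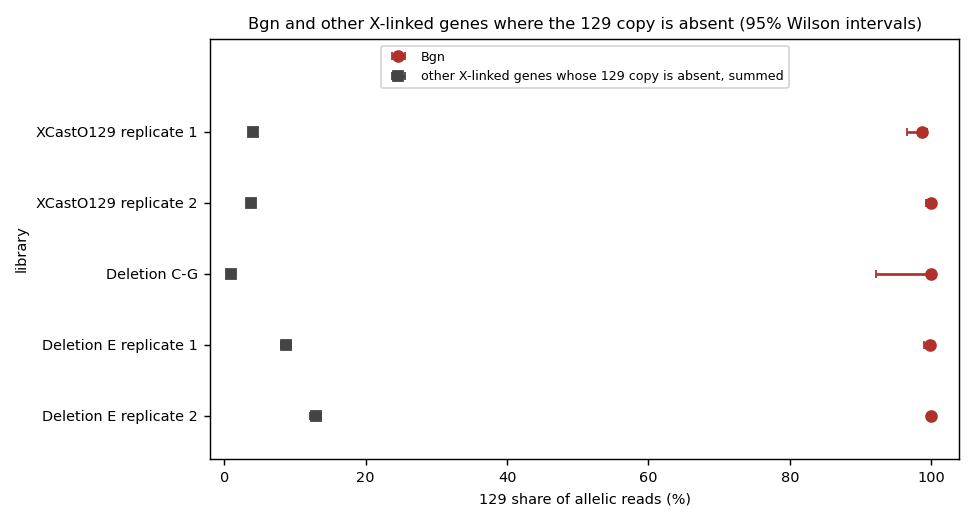
Share of 129 reads for Bgn and for all other X-linked genes of the same missing region, in percent with 95% Wilson intervals, in each of the 5 libraries that lack the 129 copy of Bgn. Bgn is at 98.7 to 100% in each of them, and the other genes are at 0.902 to 12.9% where the 129 copy is missing.

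The other genes of the same missing regions gave few 129 reads. Over 928 other X-linked genes, 4.00 and 3.72% of the allelic reads of the XCastO129 libraries were 129, as were 8.70 and 12.9% over 103 genes in Deletion E and 0.902% over 453 genes in Deletion C-G. Bgn alone supplied 12.8 and 20.7% of all 129 reads of the missing region in XCastO129, 51.5 and 48.3% in Deletion E, and 38.8% in Deletion C-G. In X129OCast 99.7% of reads over the other genes were 129.

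A few further genes kept 129 reads at a share of over 20%, among those with at least 20 allelic reads. In Deletion E they were 5 of 45 genes, among them Bgn, Flna, an actin crosslinker (29.1%), and Mpp1 (61.8%). In Deletion C-G Bgn was the only one of 79. In XCastO129 they were 15 of 312, among them Bgn, Col4a5, a basement membrane collagen chain (80.8%), Sh3kbp1 (57.0%), Timp1, an inhibitor of matrix proteases (44.7%), Lamp2 (32.0%), Msn (23.2%) and Plp2 (22.2%). Bgn was at 99.5% over both XCastO129 libraries. These genes were picked by that share and are a description. Deletion J and Deletion I-TEL had 1 such gene each, of 28 and 79. In Deletion I 54 of 54 allelic reads of the missing segment were 129, and which copy that line lacks was not tested.

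The Cast reads of Bgn set a limit. There were 23 in all 30 libraries, and no library offers a level of Bgn known to come from a Cast copy, so that a Cast copy that is hardly expressed and Cast reads that cannot be assigned at Bgn cannot be told apart. Misassigned reads as a source of the 129 share were not tested. The level of Bgn was 42.0 and 81.3 TPM in XCastO129 and 32.6 and 55.4 TPM in X129OCast. The log2 difference was 0.44 ± 0.55 (SE, edgeR, adjusted p = 0.709), and the median difference over the 10 members was 0.44. With 2 libraries per line and that SE, a difference in either direction cannot be told from none. The part of the stem cells' own Bgn copy in this level was not tested.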

How the data were processed

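RNA of 30 libraries was sequenced after stranded mRNA library preparation, with reads of 50 bases that were paired except in the XO lines. The authors trimmed the reads with Trim Galore 0.6.7, used HISAT2 2.2.1 for alignment to an mm10 genome with strain SNPs masked, assigned reads to alleles, processed alignments with SAMtools 1.10 and deposited raw gene counts without normalization, for all reads and for 129 and Cast reads. The paper names featureCounts as the counter, and the submitters' processing notes list HTSeq 0.12.4, so the counter could not be settled. Allelic reads were 12.2 to 12.7% of counts in paired and 21.9 to 22.0% in single-read libraries. Of 55421 genes, 55240 were matched to GENCODE M21, and the 181 without a match, with no more than 0.00401% of any library, were left out.

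TPM were computed from the deposited counts and union exon lengths. Levels were tested with edgeR 4.0.16 (R 4.3.3) in 1 quasi-likelihood fit of 30 libraries with 17 group terms, with normalization factors (TMM) from autosomal genes, for genes that reached 10 counts in 2 or more libraries. Shares were tested in a second edgeR fit with 129 and Cast counts as separate columns and a minimum of 10 allelic counts in 2 or more libraries, whose refits without a library reused the dispersion trend of the full fit. Alternatives were DESeq2 1.42.0, its size factors, TMM from all genes, no filter on low counts, a minimum of 30 allelic counts, a replicate block and leaving out libraries. Correlations used 100000 permutations or, for 6 libraries, all 720 orders. In simulated counts for Deletion E against Rnf12+/- cells (17736 genes), 59 of 100 genes changed by 1 on the log2 scale and 98 of 100 changed by 2 were called, and 5 of 17536 unchanged ones. For shares of XCastO129 against Rnf12+/- cells (12449 genes) these were 21 and 97 of 100, and 4 of 12249. The simulated spread was set by mean level, without gaps such as the 6.01-fold one of Col1a1 between Rnf12+/- replicates. Simulated shares started from equal 129 and Cast counts, where Col1a1 was at 98.8% 129. These numbers therefore do not carry over to such members.

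Groups were taken from the labels. The members and gene lists were chosen with earlier results of these data known. All 10 members were named, with other genes named only as the 5 whose pattern was most like the members' mean, as X-linked genes that kept 129 reads, or as examples chosen after their values were seen. The Python version was 3.11.15, with scipy 1.17.1.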

Additional observations from a re-analysis of the deposited data

Results flagged for a closer look

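The 129 share of Col1a2 differed between the 2 XO lines by -0.947 on the log2 scale of the 129 to Cast ratio (XCastO129 over X129OCast), which a direct test of that difference called (edgeR's quasi-likelihood test, adjusted p = 0.017). The 129 copy gave 111 of 173 and 269 of 378 reads in XCastO129 and 127 of 162 and 178 of 215 in X129OCast.

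Y-linked genes, which are not among the 10 genes followed, were read in every library of these female lines, with a summed count of 383 in replicate 1 of Rnf12+/- cells and more than 3 counts, the limit that a count of 0 allows, in all 30 libraries. The source of these reads was not tested.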

How the results depend on the processing

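The 46 calls of a member were 43 in levels and 3 in 129 shares, and none of them held in every refit that left out libraries. Their number among the 10 members depended most on the filter. Without a filter on low counts the calls were 2 for wild type, 3 for Deletion E, 8 for XCastO129 and 8 for X129OCast against Rnf12+/- cells, 3 between the XO lines, 79 for the 12 lines against Rnf12+/- cells and 77 against the other 11, while the share of all genes called was lower than with the filter in all of these but Deletion E. In that fit the trend replaced each gene's own spread: the quasi-dispersion used for Col1a1 was 0.627 where that of its own libraries was 23.8, against 16.9 and 25.0 with the filter. DESeq2 gave 1 between the XO lines. A minimum of 30 allelic counts gave 0 share calls in the 12 lines. The numbers did not pair the samples across the series: the deviations of same-numbered libraries from their group means correlated at -0.280 to 0.607 over 78 pairs of groups (median 0.009, 69 of them at or under 0.1). The highest was that of wild type with Rnf12+/- cells. With a block in those groups alone, chosen after seeing the data, 0 of the 10 were called in wild type, with Lum (adjusted p = 0.225) and Sparc (adjusted p = 0.241) below 0.05 unadjusted. With the replicate block over all groups the level calls were 0 in XCastO129, 24 in the 12 lines against Rnf12+/- cells and 11 against the other 11. Leaving out a library, the level calls ranged from 0 to 1 for wild type, 0 to 2 for Deletion E, 0 to 2 for XCastO129, 1 to 6 for X129OCast, 2 to 59 for the 12 lines against Rnf12+/- cells (16 without either clone of Deletion H and 17 without either of Deletion K) and 2 to 15 against the other 11. Share calls ranged from 0 to 1 for wild type, Deletion E, X129OCast and between the XO lines, and from 0 to 2 for XCastO129. In the 12 lines shares were refitted only with either replicate number left out of all lines that have 2, and the calls were then 0. With either replicate number left out of all 8 lines that have 2, the 12 lines had 2 level calls against Rnf12+/- cells and 3 or 2 against the other 11. Dcn in Deletion I-TEL turned from 1.16 to -0.35 without replicate 2 and to -0.22 without replicate 2 of that line alone, over a range of -0.35 to 2.01 when libraries were left out. The refits without single libraries of the 12 lines were chosen after seeing the data. Depth limits Lum, with 12 allelic reads, Dcn, with 165, and Col3a1, with 480.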

Other observations

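Some genes of the other lists had allelic shares far from the autosomal median. Adgre1, the macrophage surface marker F4/80, gave 314 of 314 allelic reads from the 129 copy, at 1.30 to 11.9 TPM, and its pattern over the libraries had r = 0.794 with the mean of the 10 matrix genes. The other blood or endothelial markers had a median r below 0. Ptprc, the leukocyte marker CD45, with 73 of 74 reads, Thbd, thrombomodulin, with 475 of 528, and Tek, an endothelial receptor, with 748 of 878 leaned to the 129 copy as well. Cd68, another macrophage gene, was at 52.9% 129 reads (74 of 140). The endothelial markers did not lean one way, with Tie1 at 17.9%, Pecam1 at 40.1% and Kdr at 51.2%. Summed over the 8 endothelial and blood markers, 49.2% of the allelic reads were 129. Several matrix genes leaned to the Cast copy, with Serpinh1, the collagen chaperone, at 26.8%, Plod2, a collagen lysyl hydroxylase, at 36.0% and Eln, elastin, at 34.1% 129 reads. These genes were chosen after their values were seen, and other cells as a source of the Adgre1 reads were not tested.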
